A study of Mus musculus with 3 samples.

Results

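The regions described here are 238 autosomal intervals of extreme score or width in a list of potential FAIRE peaks from mouse embryonic stem cells. They were chosen by their own values, as intervals with a deposited score of at least 0.2 or a width of at least 3000 bp, from 344785 autosomal intervals and 348759 intervals in all. The score criterion was met by 142 intervals (0.0412% of the autosomal intervals) and the width criterion by 112 (0.0325%). Both criteria were met by 16, so that 126 intervals were extreme in score alone and 96 in width alone. Together they made up 0.069% of the autosomal intervals. Scores and widths chose these intervals and are given as a description.

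The cells were wild type embryonic stem cells of the mixed strain 129Sv-C57Bl/6, grown without feeder cells, and the series held 3 samples. One was input DNA, and the others were FAIRE libraries of cells treated for 16 h with DMSO, the solvent control, or with 500 nM ICRF-193, a catalytic inhibitor of topoisomerase II. Each FAIRE title joins replicates 1 and 2, so there was 1 sample per group. The list assigns no interval to a sample, so DMSO and ICRF-193 could not be compared, no replicate error exists, and the inhibitor's effect on these intervals was not measured.

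FAIRE (formaldehyde-assisted isolation of regulatory elements) enriches DNA that formaldehyde crosslinks poorly to protein and is used to map open chromatin. F-Seq, which the name of the list names, smooths aligned reads into a density and lists stretches above a threshold. Read-based maps of the mouse genome are known to show very high or very broad signal over tandem repeats such as the major and minor satellites, and over recently duplicated gene families, where reads of many genomic copies can align to few reference copies. Mouse autosomes carry the centromere and its satellites close to the end where coordinates begin, and much of that sequence is a gap in the assembly. Sequence of mm9, the build of the list, was not used here. Whether the intervals are satellite-like was therefore not tested, and they are called by the criteria that chose them.

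The 2 criteria picked out intervals of different shape. The score-only intervals were narrow and tall. Their median score was 0.375 (interquartile range 0.283 to 0.575), the highest was 2049, and their median width was 620 bp (568 to 780 bp). The width-only intervals were broad and low. Their median width was 4177 bp (3635 to 5781 bp), and their scores ran from 0.0316 to 0.184 with a median of 0.0678. The lowest autosomal score was 0.0129, so the score threshold of 0.2 lay 15.5 times above it. The 16 intervals that met both criteria had a median width of 9296 bp and a median score of 0.297. In all, the extreme intervals covered 859 kb, or 2.17% of the autosomal bases covered by the list, and the 112 wide intervals held 765 kb of this.

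**Figure D1:**
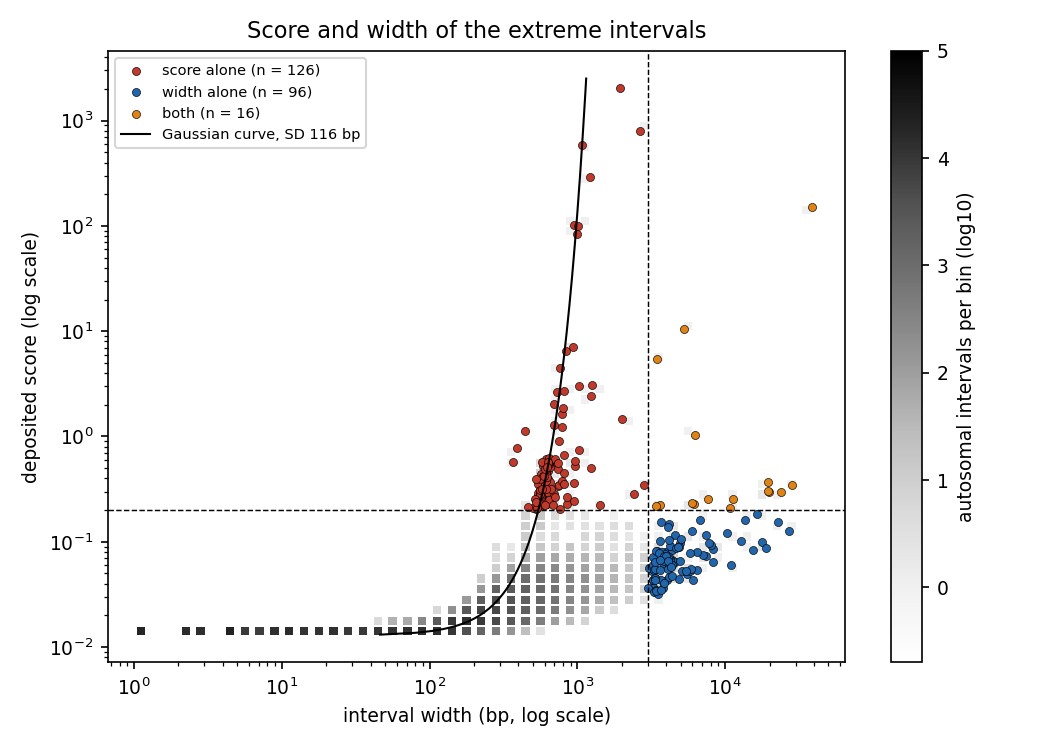
Deposited score against interval width, both on log axes, for autosomal intervals binned in grey and for the 238 extreme intervals as coloured points; the dashed lines are the thresholds of 0.2 and 3000 bp. The score-only points rise along the Gaussian curve drawn for an SD of 116 bp, while the width-only points lie far to the right of it with scores under 0.2.

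Neither threshold fell in a break of the values. The lowest score-criterion values inside the threshold were 0.204, 0.204 and 0.209, on chromosomes 3, 14 and 6, and the highest outside were 0.1995, 0.1977 and 0.1977, on chromosomes 4, 4 and 13. The narrowest wide intervals measured 3018, 3050 and 3227 bp, on chromosomes 1, 17 and 1. The widest outside measured 2978, 2976 and 2967 bp, on chromosomes 13, 8 and 4.

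Score-only intervals occurred on almost every autosome, whereas wide intervals were concentrated on a few. Of 19 autosomes, 18 held intervals that met the score criterion, with a median of 8 and at most 13, on chromosome 2. These counts include intervals that were also wide. Score-only intervals numbered 12 on chromosome 2, and 3 of the 10 that met the score criterion on chromosome 8. Wide intervals were found on 12 autosomes, and chromosomes 1, 4 and 8 held 80 of the 112 (71.4%), against 23.8% of all autosomal intervals. Chromosome 8 held 30 wide intervals, chromosome 1 held 29 and chromosome 4 held 21. Chromosomes 3, 12, 13, 15, 16 and 19 had score-only intervals and no wide one. Chromosome 7 was the only autosome without an extreme interval. Among its 20533 intervals the highest score was 0.118 and the largest width 2707 bp.

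**Figure D2:**
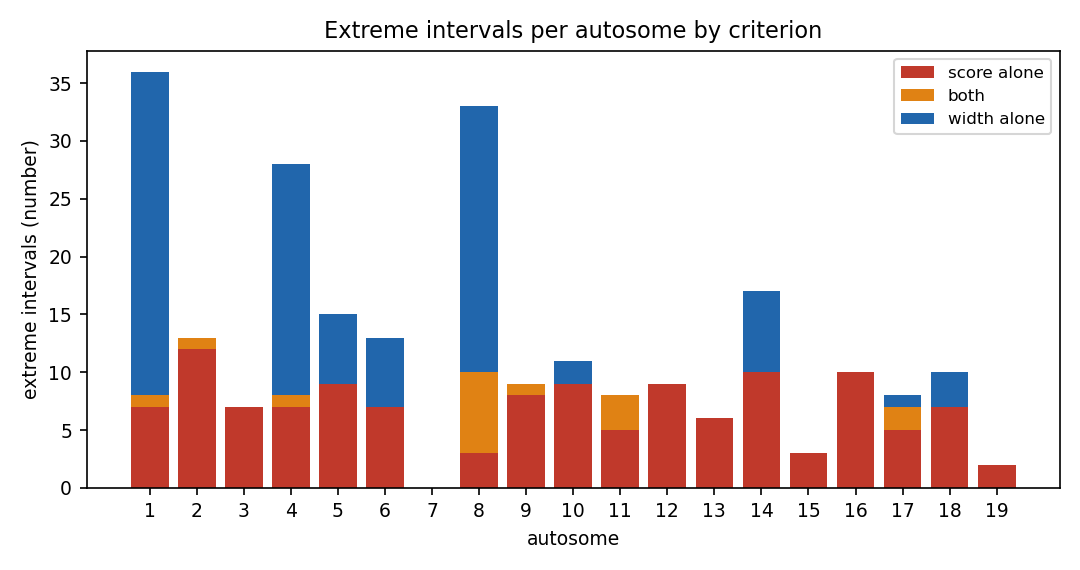
Number of extreme intervals on each of the 19 autosomes, stacked by criterion. Red segments are spread over 18 autosomes, the blue segments reach 20 or more on chromosomes 1, 4 and 8 only, and chromosome 7 is empty.

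Extreme intervals closer than 100 kb to each other were counted as 1 locus, since neighbours share their position and are not independent. This gave 155 loci. Score-only intervals were mostly solitary: 116 of 126 (92.1%) were the only extreme interval of their locus. Of the wide intervals 19 of 112 (17.0%) were solitary, and 68 (60.7%) lay in the 6 loci with at least 5 extreme intervals. Just 2 loci, at the first listed ends of chromosomes 11 and 18, held both score-only and wide intervals.

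Most score-only intervals had fewer neighbours than the median autosomal interval, and a majority of the wide intervals had more. The number of other intervals within 100 kb on either side did not enter the rule. A score-only interval had a median of 15 such neighbours (interquartile range 4 to 30), and 119 of 126 (94.4%) had fewer than the median autosomal interval, which had 66 (34 to 112). A width-only interval had a median of 197.5 neighbours (63 to 238). Of all 112 wide intervals, whose median was 164.5, 73 (65.2%) had more than the median autosomal interval. The median depended on the rule: it was 81.5 at a width threshold of 5000 bp, and 47 when intervals within 500 bp were joined first, which merges neighbours. The 47 counts joined regions, for which no autosomal median is given, so it cannot be set against 66. Intervals covered a median of 0.818% of the flanking bases around score-only intervals, 44.5% around width-only intervals and 3.50% around all autosomal intervals. The autosomal medians are taken over intervals, so crowded regions count more often in them. Where wide intervals fill a flank it can hold few intervals: the 18 intervals of at least 10000 bp had a median of 63 neighbours, with 54.1% of the flanks covered. Of the gaps that separated a wide interval from its next neighbours 83.4% were no longer than 500 bp, against 11.7% for score-only intervals and 54.0% for all autosomal intervals.

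**Figure D3:**
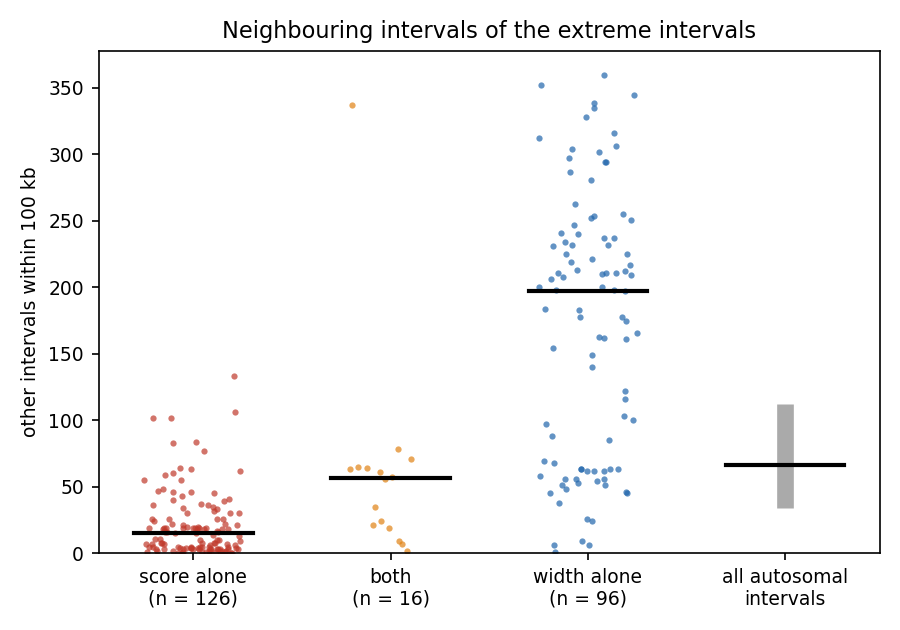
Number of other intervals within 100 kb on either side of each extreme interval, by criterion, with black bars at the medians; the grey bar for all autosomal intervals is their interquartile range, 34 to 112. Most score-only points lie below the autosomal median of 66 and most width-only points above it.

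Most of the highest scores belonged to narrow intervals with few neighbours, far from any chromosome end. Of the 10 highest, 7 scored over 100 and 8 were narrower than 3000 bp. Those with the first, second and eighth highest scores (2049, 800 and 84.2) were neighbours on chromosome 2, within 98501933 to 98507944, separated by 190 and 219 bp. Within 100 kb of each of them 2 or 3 other intervals were listed, the other members of the triplet included. The interval at 77577756 to 77578704 of chromosome 13 scored 102 over 949 bp and had 4 neighbours within 100 kb. The interval at 103598686 to 103599702 of chromosome 6 scored 101 over 1017 bp and also had 4. The interval of chromosome 9 that scored 290, at 35112404 to 35113628, was 1225 bp wide and had 21 neighbours. The interval at 98299336 to 98300265 of chromosome 12, with a score of 7.07, had 1. Of these 10 intervals 2 lay within 500 kb of a chromosome end of the list, on chromosome 12 at 3109445 to 3110524 (score 585, 1080 bp) and on chromosome 9.

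Below these, 104 of the 126 score-only intervals scored under 1, with a median of 0.346. Their widths were uniform, with a median of 606 bp and an interquartile range of 564 to 669 bp. Widths of 500 to 700 bp were found for 79 of the 126 score-only intervals (62.7%), against 1.99% of the autosomal intervals that were not extreme. The latter were mostly low in score, with a median score of 0.0136 and a median width of 41 bp. Intervals under 3000 bp that scored 0.1 to 0.2 had a median width of 601.5 bp (n = 116). Those that scored 0.05 to 0.1 had one of 614 bp (n = 1849), against 620 bp for score-only intervals. Such a median width was therefore not particular to the extreme intervals.

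The widths of most score-only intervals lay near 1 curve of their scores, with exceptions on both sides. A Gaussian curve whose height is the score of an interval, and which falls to the lowest score of the list at both ends of that interval, has an SD that can be computed from score and width. This use of the score as a peak height is an assumption, since no source used here gives the scale. The SD had a median of 116 bp over the score-only intervals, with an interquartile range of 111 to 131 bp, although their scores spanned 0.204 to 2049. In 85 of 126 (67.5%) it lay within 10% of the median. It was 116 bp at scores of 0.2 to 0.3 (n = 37), 115 bp at 0.3 to 0.5 (n = 45), 118 bp at 0.5 to 1 (n = 22), 127 bp at 1 to 10 (n = 15) and 120 bp above 10 (n = 7). The class medians ran from 115 to 127 bp. The interquartile range within a class was narrowest at scores of 0.3 to 0.5, at 111 to 120 bp. It was 113 to 144 bp at scores of 1 to 10 and widest above 10, at 118 to 167 bp. Below the score threshold, among intervals under 3000 bp, the SD was wider and more variable. Its median was 137 bp at scores of 0.1 to 0.2 (113 to 262 bp, n = 116). At scores of 0.05 to 0.1 it was 178 bp (139 to 245 bp, n = 1849). The lower quartile of 113 bp at 0.1 to 0.2 lay below 116 bp, so such an SD was not particular to the extreme intervals. For the wide intervals the SD had a median of 1219 bp, and each of the 112 lay above 116 bp, as the width criterion ensures at these scores. The SD is built from the values that chose the intervals, so these figures describe the list and test nothing.

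Departures from that curve were of both kinds. In 33 score-only intervals the SD exceeded 130 bp, and their median width was 930 bp. The largest values were 550 bp at the first listed end of chromosome 18, where the interval had neighbours 16 bp and 1 bp away, and 486 bp within the block of wide intervals on chromosome 11. The 2 highest-scoring intervals also exceeded it, with 198 and 284 bp. In 4 intervals the SD was under 100 bp. Of these, 2 were the last intervals listed on their chromosomes, at 152536872 to 152537259 of chromosome 5 (score 0.776, 388 bp, SD 67.7 bp) and at 121843411 to 121843856 of chromosome 11 (score 1.12, 446 bp, SD 74.6 bp). The lowest, 66.7 bp, was at 21586238 to 21586605 of chromosome 15, which scored 0.575 over 368 bp and had no other interval within 100 kb.

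The last interval of 4 of 19 autosomes was a score-only interval. Besides chromosomes 5 and 11, these were chromosome 2 (181747237 to 181748030, score 1.65, 794 bp) and chromosome 18 (score 2.02, 699 bp). The last intervals of the other 15 autosomes scored 0.0129 to 0.0812, with a median of 0.0144, so the groups did not overlap, as the score criterion requires. No other extreme interval lay within 500 kb of the last listed position of an autosome.

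At the other end, where mouse centromeres lie, extreme intervals were present on a minority of autosomes. The first listed position ran from 3000001 on chromosome 9 to 3098286 on chromosome 12. Within 500 kb of it there were 12 extreme intervals on 7 autosomes, of which 5 were on chromosome 11, and none on the other 12 autosomes. The 2 that began at the first listed position were the 38644 bp interval of chromosome 9 (3000001 to 3038644, score 152) and a 635 bp interval of chromosome 11 (3000151 to 3000785, score 0.467). On chromosome 18 an interval of 2821 bp (score 0.346) began 23 bp from the first listed position. The nearest ones on the other 4 autosomes were farther in. They lay 11.2 kb from it on chromosome 12, 75.9 kb on chromosome 17 (3081175 to 3084811, 3637 bp, score 0.223), 150 kb on chromosome 6 (3150584 to 3151828, 1245 bp, score 0.503) and 369 kb on chromosome 13 (3371999 to 3373429, 1431 bp, score 0.226). Of all autosomal intervals 0.563% lay within 500 kb of the first listed position, against 5.04% of the extreme ones.

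The block at the start of chromosome 11 held the largest nearly unbroken run outside chromosome 8. Its 3 wide intervals, of 23917, 28456 and 19580 bp, followed each other from 3025144 to 3100185, and intervals covered 99.1% of that 75.0 kb. Their scores were 0.299, 0.344 and 0.371, which also met the score criterion. A score-only interval of 2418 bp (score 0.282) lay between the first and the second. Joining intervals within 500 bp turned the block into 1 region of 80.4 kb. The widest joined region, 94.5 kb from 33 intervals, was at 19914705 to 20009190 of chromosome 8.

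The classes differed in their distance to the nearest edge, largely through the wide intervals of chromosomes 1 and 8. An edge was an end of a listed chromosome or of 1 of the 7 autosomal stretches in which no interval was listed over 1 Mb or more. Of the wide intervals 61 of 112 (54.5%, 95% Wilson interval 45.2 to 63.4%) lay within 500 kb of such an edge. Of the score-only intervals 10 of 126 did (7.94%, 4.37 to 14.0%), and of the intervals that met both criteria 12 of 16. The background was 1.45% of all autosomal intervals. These intervals cover counting error only and treat neighbours as independent, which they are not. The share of wide intervals rested on few loci. It was 40.7% without the locus of chromosome 8 that held 26 of them, and 11.3% (n = 53) without chromosomes 1 and 8. When intervals within 500 bp were joined before the rule was applied, 906 regions were wide and 6.29% of them lay within 500 kb of an edge, against 1.20% of all joined regions. The median distance to the nearest edge was 22.7 Mb for score-only intervals and 24.2 Mb for all autosomal intervals, but 0.333 Mb for wide intervals. That last median also rested on chromosomes 1 and 8, and its value without them is not given. The 21 wide intervals in the group of chromosome 4 lay at least 8.55 Mb from an edge.

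**Figure D4:**
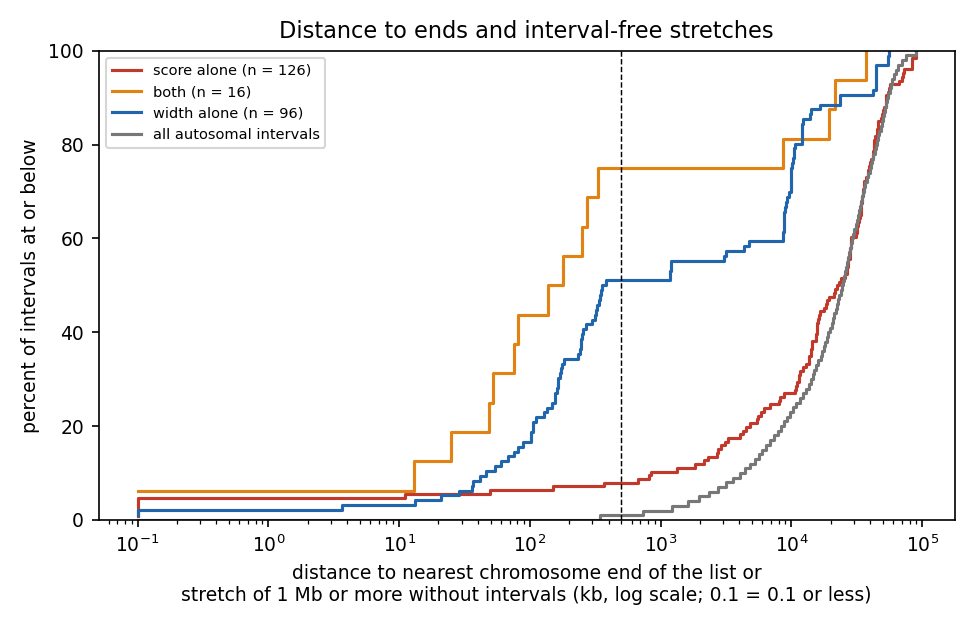
Cumulative percent of intervals by distance, in kb on a log axis, to the nearest chromosome end of the list or stretch of at least 1 Mb without intervals; the dashed line marks 500 kb. At that line the curves stand at 7.94% for score-only, 51.0% for width-only and 75.0% for both criteria, against 1.45% of all autosomal intervals.

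Closeness to an edge increased with width well before the threshold of 3000 bp, among intervals that the rule left out. Intervals of 200 to 1000 bp were within 500 kb of an edge in 1.60% of cases (n = 67495), those of 1000 to 2000 bp in 7.46% (n = 1220) and those of 2000 to 3000 bp in 35.2% (n = 125). These intervals are not independent of each other or of the wide ones. A width threshold of 2000 bp gave 360 extreme intervals in 180 loci, against 238 in 155 as reported. The shares by width without chromosomes 1 and 8 are not given. Among the wide intervals the share was 47.1% at 3000 to 5000 bp (n = 70) and 41.7% at 5000 to 10000 bp (n = 24). All 18 intervals of at least 10000 bp were within 299 kb of an edge. The 10 widest, of 17777 to 38644 bp, had scores from 0.0864 to 152, and 1 of them, the first interval of chromosome 9, was also among the 10 highest-scoring. Of the 18, chromosome 8 held 9, chromosome 1 held 5, chromosome 11 held 3 and chromosome 9 held 1. By score the share also rose below the threshold, up to scores of 0.1 to 0.2, and showed no steady rise above that. The share was 1.37% at 0.01 to 0.02 (n = 293777) and 1.69% at 0.02 to 0.05 (n = 48826). It was 5.71% at 0.05 to 0.1, 19.7% at 0.1 to 0.2 and 16.0% at 0.2 to 0.5, over 1908, 132 and 94 intervals. It was 9.09% at 0.5 to 1, 17.6% at 1 to 10 and 22.2% at 10 and above, over 22, 17 and 9 intervals. These score classes include wide intervals. Among intervals that met the score criterion, 12 of the 16 that were also wide lay within 500 kb of an edge. Of the score-only ones 10 of 126 (7.94%) did. The shares by score without wide intervals are not given.

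Just 3 of the 7 long stretches had an extreme interval beside them, on 4 of 14 sides. Those 4 sides held 55 extreme intervals, each of which met the width criterion. None of the 126 score-only intervals lay within 500 kb of a long stretch. Of all autosomal intervals 0.442% did, a share below the upper Wilson limit of 2.96% for score-only intervals. Their absence there could therefore not be told apart from the background share.

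The stretch of chromosome 1 from 85343702 to 87343769 was flanked on both sides. To its left 20 wide intervals lay between 13.1 and 380 kb from the edge, with widths of 3018 to 17777 bp and scores of 0.0316 to 0.162. To its right 8 lay between 41.6 and 173 kb from the edge, with widths of 3227 to 18956 bp and scores of 0.0429 to 0.0864. Intervals covered 55.3% of the 500 kb on the left and 29.5% on the right. None of these 28 wide intervals met the score criterion. As background, this part of chromosome 1 is known for the Sp100 and Sp140 family of nuclear body genes, although positions were not matched to genes here.

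On chromosome 8 the extreme intervals were on the left side alone of the stretch from 20038081 to 22043656. This locus held 26 wide intervals in 359 kb, from 19679540 to 20038080, the largest number in a locus, and 7 of them also met the score criterion. The nearest, of 12870 bp, touched the stretch, and the widest, of 27099 bp, lay 299 kb from it. On the right side the widest interval within 500 kb measured 1114 bp and the highest score was 0.0477. The second long stretch of chromosome 8 had a single extreme interval, of 10303 bp with a score of 0.120, at 56198871 to 56209173. It too touched the stretch, and 1 other interval lay within 100 kb. Each side of a long stretch is bounded by a listed interval by definition, and on 2 of the 14 sides that interval was extreme.

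**Figure D5:**
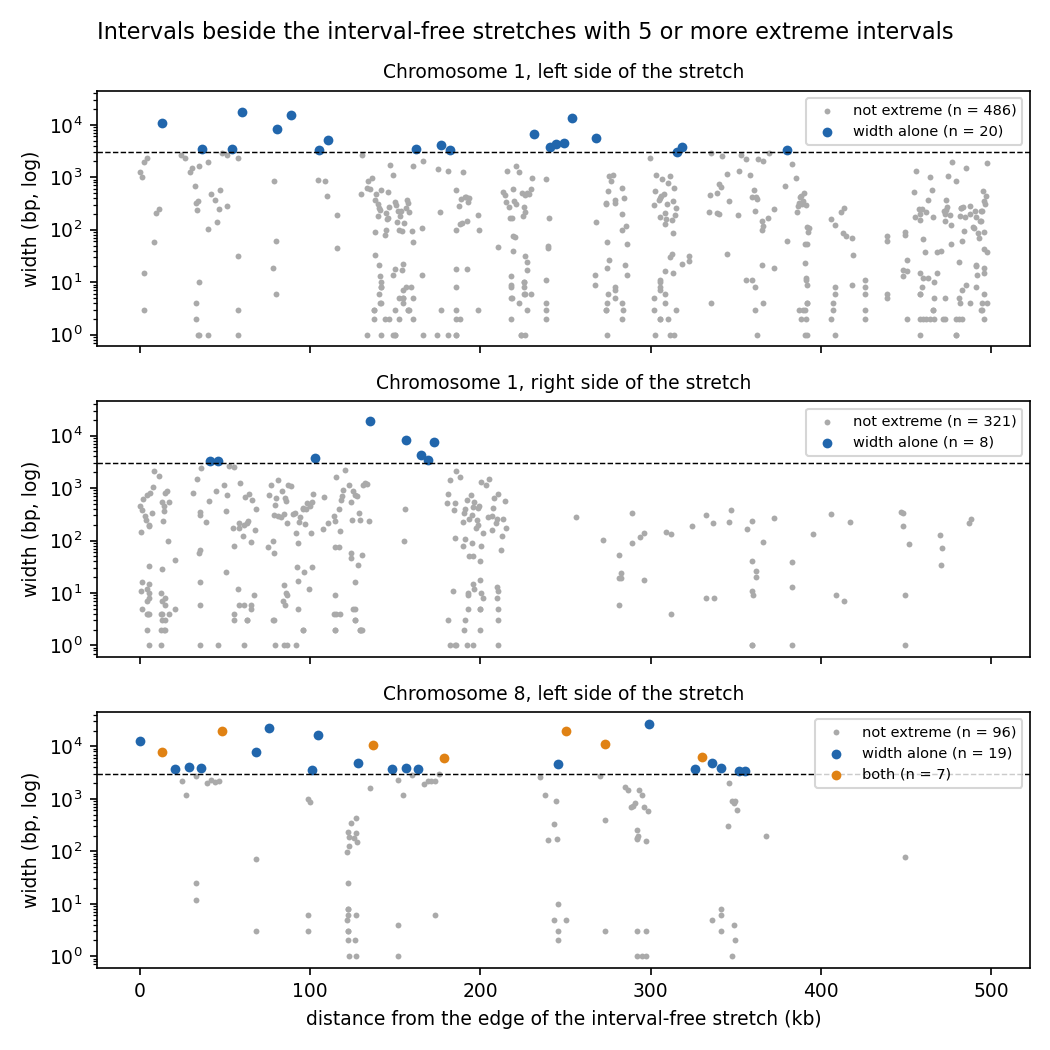
Width of every interval, on a log axis, against distance in kb from the edge of the stretch, for the 3 sides with at least 5 extreme intervals; the dashed line is 3000 bp. On chromosome 1 wide intervals are mixed with many narrow ones, whereas on chromosome 8 only 96 other intervals accompany 26 wide ones. No interval of 3000 bp or wider is listed past 355 kb on chromosome 8. On chromosome 1 none is listed past 380 kb on the left side or past 173 kb on the right side.

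The other 4 long stretches, on chromosomes 4, 5 and 7, had no extreme interval on either side. Beside the longest, of 7.08 Mb on chromosome 7, the widest interval within 500 kb measured 681 bp and the highest score was 0.0543. Beside the stretch of 1.46 Mb on chromosome 5, the widest measured 407 bp. Long stretches without intervals therefore occurred both with and without extreme intervals at their edges.

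Away from edges and long stretches, wide intervals formed a few further groups. Wide intervals were chained at distances under 2 Mb, a limit chosen after the values were seen, which gave 23 groups. The 7 groups with at least 4 wide intervals held 90 of the 112 (80.4%). Besides those of chromosomes 1 and 8, the largest had 21 wide intervals between 145021676 and 147073490 of chromosome 4, with widths of 3242 to 7969 bp and scores of 0.0346 to 0.218. Their median number of neighbours within 100 kb was 304, against 57.5 in the locus of chromosome 8, and the nearest edge was 8.55 Mb away. This part of chromosome 4 is known for clustered zinc finger genes, again as background. At 100 kb chaining 1 locus of this region, 145603690 to 145742371, held 6 wide intervals of at most 4872 bp.

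Smaller groups were found on chromosomes 14, 6 and 5. Between 4180455 and 7726599 of chromosome 14 there were 6 wide intervals, of 3263 to 6093 bp and with scores of at most 0.0697, in a span that was 10.9% covered. A locus at 47606380 to 47708239 of chromosome 6 held 5, of 3368 to 5771 bp, with scores of 0.0553 to 0.0904. Between 14950994 and 15129557 of chromosome 5 there were 4, of 4096 to 5923 bp. None of these 15 lay within 500 kb of an edge.

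Another 4 wide intervals stood apart from such groups by their score, which exceeded 1. They were the first interval of chromosome 9, an interval of 5269 bp at 24618088 to 24623356 of chromosome 1 (score 10.6), 1 of 3451 bp at 22442605 to 22446055 of chromosome 2 (score 5.49) and 1 of 6300 bp at 39979705 to 39986004 of chromosome 17 (score 1.03). The last 3 lay 21.6, 19.4 and 37.0 Mb from the nearest edge. They had 19, 9 and 7 neighbours within 100 kb, a number closer to the median of 15 for score-only intervals than to the 197.5 for width-only intervals.

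Within both classes score and width rose together, with a Spearman's rho of 0.53 over the 126 score-only intervals and 0.57 over the 112 wide intervals. It was 0.94 over all autosomal intervals. Both classes are truncated by the rule, and intervals of 1 locus share their source, so these coefficients are a description.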

How the data were processed

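The series comprised 3 samples, an input, a DMSO and an ICRF-193 library, grouped by their labels. Bowtie and the build mm9 are named in the submitters' processing notes, with no Bowtie version. The name of the deposited list names F-Seq; no source used here gives its settings, the read filters or the samples that entered it. The score of each interval is the authors' deposited value, on a scale that was not stated, and was used to rank and describe intervals within the list. Read depth is unknown.

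Widths, distances, neighbours and loci were computed with scipy 1.17.1, numpy 2.4.6 and pandas 2.3.3 in Python 3.11.15, and drawn with matplotlib 3.10.9. Starts count from 0 in the list and are printed counted from 1. Distances ran to the first or last listed interval of a chromosome (chromosome lengths were not used), or to the edge of a long stretch, of 1 Mb or more, free of intervals. Flanks of 100 kb can run into such stretches. The classes, nearness to edges, neighbour counts, flank coverage and loci were checked on simulated intervals. The SD was checked on widths planted with its own formula, which says nothing about whether real intervals have a Gaussian shape. Joining within 500 bp and the breakdown by width and score were not part of this check. The planned results had no test, because the list assigns no interval to a sample.

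The intervals, lists and thresholds were chosen with earlier results of these data known. Regions named were the 10 highest-scoring and 10 widest, the 5 highest-scoring that met both criteria, the 3 on either side of each threshold, loci with at least 5 extreme intervals, and the nearest to each listed chromosome start or long stretch; others were named after their values were seen. The Gaussian SD, the 2 Mb groups, the breakdown by width and score and the last listed intervals were added after seeing the data.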

Additional observations from a re-analysis of the deposited data

Results flagged for a closer look

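The thresholds of score and width were also applied to the sequences outside the autosomes, which the description above does not use. On chromosome X 17 of 3817 intervals met the rule, 12 by score and 10 by width, and the highest score was 22.2. On chromosome Y 5 of 156 intervals met it, 5 by score and 4 by width, with a highest score of 0.678. Of the autosomal intervals 238 of 344785 (0.069%) met it. The mitochondrial genome was listed as a single interval with a score of 22.6. No control without such intervals exists in the list.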

How the results depend on the processing

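Of 84 alternative values for 10 results, 56 stayed within 1.5 times of a reported count or within the 95% interval of a reported share or median. Another 28 moved and 0 changed direction, although a count or a median has no direction to change. Of the 84, 7 were chosen after seeing the data. Some of the 56 could not move. A score threshold leaves the wide intervals as they were, and a width threshold leaves those that met the score criterion. The 56 are therefore no measure of stability. The cause of the moves was not tested, except that another threshold admits other intervals by construction. A score threshold of 0.1 gave 244 loci (155 reported), 20 neighbours around intervals that met it (17 reported) and an SD of 120 bp (116 reported). A score threshold of 0.4 gave 88 loci, a median width of 741 bp for intervals that met it (635 reported), and 40.5% of extreme intervals within 500 kb of an edge (29.8% reported). A width threshold of 2000 bp gave 360 extreme intervals (238 reported), with 44.3% of the wide ones near an edge (54.5% reported) and a median score of 0.0620 (0.0739 reported). A width threshold of 5000 bp gave 22.8% of extreme and 66.7% of wide intervals near an edge, 81.5 neighbours around a wide interval (164.5 reported) and a median score of 0.111. With a distance of 100 kb in place of 500 kb, 13.0% of extreme and 20.5% of wide intervals were near an edge, against 0.307% of all. Joining within 500 bp first gave 1025 extreme regions in 584 loci, of which 6.24% and, of the wide ones, 6.29% were near an edge; neighbours numbered 47 and 8 around wide and high-score regions, and wide regions had a median score of 0.0413. Without the locus of 26 wide intervals on chromosome 8, the shares were 21.2% and 40.7%, with 208.5 neighbours and a median score of 0.0658 for wide intervals. Without chromosome 8, 41.5% of wide intervals were near an edge, and without chromosomes 1 and 8, 11.3%. No paired analysis was possible because the list assigns no interval to a sample, and leaving out a replicate was not possible for the same reason. Read depth is unknown, which limits the precision of each score by an unknown amount.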
